A study of Rattus norvegicus with 6 samples.

Results

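The guidance genes described here are the rat genes of the semaphorin, plexin, neuropilin, ephrin, Eph receptor, Slit, Robo, netrin and Unc5 families. They were chosen by a rule on symbols that uses no measured value, but with earlier results of these data known. Of the 31038 symbols in the count tables, 68 carried such a name. These were 20 semaphorins, 9 plexins, 2 neuropilins, 8 ephrins, 14 Eph receptors, 3 Slits, 4 Robos, 4 netrins and 4 Unc5 receptors. RNA sequencing had been carried out on rat cells labelled myocardial cells and NRVM, a name the labels do not spell out, with embryonic rat myocardium given as their origin. The cells of 3 libraries had received an siRNA against eIF3m, a subunit of the translation initiation factor that brings the small ribosomal subunit to mRNA, and the cells of 3 libraries a control siRNA. All 6 were grown in medium with fetal bovine serum; strain, age and the time after transfection are not stated there. Nothing in the labels shows that replicates came from independent cultures, and p-values therefore cover the spread among these libraries alone, which may be technical.

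These families form ligand and receptor pairs that were first studied in growing axons and also act in the heart and its vessels. Semaphorins signal through plexins, and the secreted class 3 members mostly need a neuropilin as co-receptor. Ephrins are anchored in the membrane and signal to Eph receptor tyrosine kinases on the neighbouring cell, in both directions. Slits bind Robo receptors, and netrins bind Dcc, neogenin and Unc5 receptors. Most of these signals converge on small GTPases and on the enzymes that assemble or sever actin filaments. In the embryonic heart, class 3 semaphorins, Plxnd1 and the Slits take part in forming the outflow tract, the vessels and the septa.

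Total counts were 10061575, 2156186 and 7901395 in eIF3m siRNA replicates 1, 2 and 3, and 7437285, 8237840 and 8603602 in control siRNA replicates 1, 2 and 3. Levels are given as CPM, the count scaled to a common library total. Totals were scaled by the trimmed mean of M-values (TMM), so 3 counts, taken as the floor, were worth 0.286 to 1.32 CPM. Eif3m stood at 91.7, 83.9 and 87.3 CPM in eIF3m siRNA libraries and at 137, 136 and 141 CPM in control siRNA libraries, so the target was lower in each knockdown library (log2 fold change -0.64 ± 0.05 SE, edgeR quasi-likelihood test, adjusted p = 1.41e-07). As a background for the marker counts that follow, 17.4% of all 12724 genes tested rose and 21.2% fell in this test. Of 14 cardiomyocyte markers, 5 passed the filter on low counts, of which 3 fell and none rose. The summed level of all 14 was 188 to 206 CPM with eIF3m siRNA and 442 to 451 CPM with control siRNA. Cardiac troponin T (Tnnt2) was at 142 to 158 CPM with eIF3m siRNA and 359 to 376 CPM with control siRNA, Pln at 2.29 to 4.86 CPM with eIF3m siRNA and 22.9 to 27.2 CPM with control siRNA, and Ttn at 6.72 to 11.9 CPM with eIF3m siRNA and 20.1 to 28.6 CPM with control siRNA (log2 fold changes -1.27 ± 0.05, -3.13 ± 0.19 and -1.49 ± 0.18 SE). The transcription factors Nkx2-5 (19.0 to 23.8 CPM with eIF3m siRNA and 17.5 to 22.2 CPM with control siRNA) and Gata4 (6.18 to 12.8 CPM with eIF3m siRNA and 7.74 to 10.1 CPM with control siRNA) did not pass the test. The cardiac myosin Myh6 was at 0 to 1.05 CPM with eIF3m siRNA and 0.638 to 0.849 CPM with control siRNA, and Myh7, Myl2 and Myl7 had at most 2, 1 and 4 counts in any library, so these 4 cardiac myosin genes were at or near the floor. None of the 9 cardiomyocyte markers that were too low to test had more than 18 counts in a library. Of 6 skeletal myoblast markers 4 were tested, of which 3 fell and none rose, and the sum of all 6 was 28.3 to 36.2 CPM with eIF3m siRNA and 52.3 to 59.4 CPM with control siRNA. Myod1 was at 13.3 to 19.4 CPM with eIF3m siRNA and 13.2 to 17.8 CPM with control siRNA and did not pass, while Myog was at 4.77 to 6.18 CPM with eIF3m siRNA and 16.8 to 22.1 CPM with control siRNA (-1.84 ± 0.17 SE), and Myh3 (-0.86 ± 0.15 SE) and Chrnd (-1.65 ± 0.40 SE) also fell. The part of these cell type differences in the guidance gene results was not tested. The library of eIF3m siRNA replicate 1 stood apart. In it the summed level of 4 blood genes was 6199 CPM, against 228.7 and 50.4 CPM in replicates 2 and 3 and 31.5 to 77.0 CPM in controls. In that library the endothelial genes Pecam1, Cdh5, Tek, Tie1, Cldn5 and Esam were also detected at 2.86 to 11.1 CPM, while in each other library they lay between 0 and 0.720 CPM. The summed level of all 12 endothelial markers, which is mostly Flt1, Vwf and Egfl7, was 247, 85.7 and 82.8 CPM with eIF3m siRNA and 133 to 144 CPM with control siRNA. Of 3 tested, Flt1 (-0.91 ± 0.05 SE) and Egfl7 (-0.56 ± 0.11 SE) fell. Vwf rose, with 129 CPM in eIF3m siRNA replicate 1 and 6.76 to 12.8 CPM in each other library. The summed level of 8 fibroblast markers, which is mostly Col1a1, was 15750 to 16370 CPM with eIF3m siRNA and 14230 to 14390 CPM with control siRNA. All 5 fibroblast markers tested rose. In eIF3m siRNA replicate 1 Dcn was at 55.4 CPM and Pdgfra at 8.77 CPM, against at most 2.21 and 1.44 CPM in each other library. Leukocyte markers summed to 19.4, 7.51 and 5.88 CPM in eIF3m siRNA replicates 1, 2 and 3 and to 3.32 to 6.25 CPM with control siRNA, and smooth muscle markers to 3241 to 3425 CPM with eIF3m siRNA and 4908 to 5026 CPM with control siRNA. All 4 smooth muscle markers were tested and fell. Of 4 epicardial markers 1 was tested, and it fell (Msln, -0.69 ± 0.10 SE). Of 7 neural and Schwann cell markers Sox10 was at 0 in all libraries, and their sum was 9.72 to 13.1 CPM with eIF3m siRNA and 6.65 to 10.2 CPM with control siRNA. For guidance genes, values without eIF3m siRNA replicate 1 are given wherever its removal ends a call. For marker genes such as Vwf and Dcn no such values are given, so their calls may rest on that library. In bulk RNA, fewer cells of a type and less RNA per cell cannot be told apart.

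Guidance genes moved in both directions with the knockdown. Of the 68, 44 passed the filter on low counts, and of these 16 rose, 14 fell and 14 did not pass the test (adjusted p under 0.05 over all genes tested). That is 68.2% called, where 38.7% of all 12724 genes tested were called (17.4% higher and 21.2% lower). The split of the whole table depended on scaling: 2220 genes rose and 2700 fell, but 3015 rose and 2130 fell with upper-quartile scaling, and 4126 rose and 1684 fell with no scaling factors, where 19 guidance genes rose and 12 fell. The filter keeps a gene that is high enough in as many libraries as 1 group holds, whichever group they belong to. Its level of 1.24 CPM applies to totals before TMM scaling, unlike the other CPM values given here. On that scale 40 of the 44 reached it in all 6 libraries, and Sema3g, Sema7a, Unc5c and Efna2 reached it in every eIF3m siRNA library but not in every control siRNA library. Among genes with a mean of at least 5 CPM over all libraries, 28 of 39 guidance genes (71.8%) and 43.6% of all genes were called. The median size of the change was 0.41 on the log2 scale among the 44 and 0.24 among all genes tested. The median change with its sign was 0.12 among the 44 and 0.01 among all genes tested. The eIF3m and control libraries did not overlap for 31 of the 44 (70.5%), against 48.6% of all genes tested. Changes of at least 2-fold were called for 5 members, the higher Sema6b, Sema6a, Efna3 and Plxnd1 and the lower Slit3, while 4.09% of all genes tested changed as much. Without eIF3m siRNA replicate 1, 11 members rose and 12 fell (52.3% called, against 34.6% of all genes, 1954 higher and 2449 lower). Without control siRNA replicate 1, 10 members rose and 12 fell (50% called, against 32.7% of all genes, 1785 higher and 2377 lower). Of the 30 called members 20 passed in all 12 alternative runs, among them those 5, and none of the 30 changed direction in any.

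**Figure D1:**
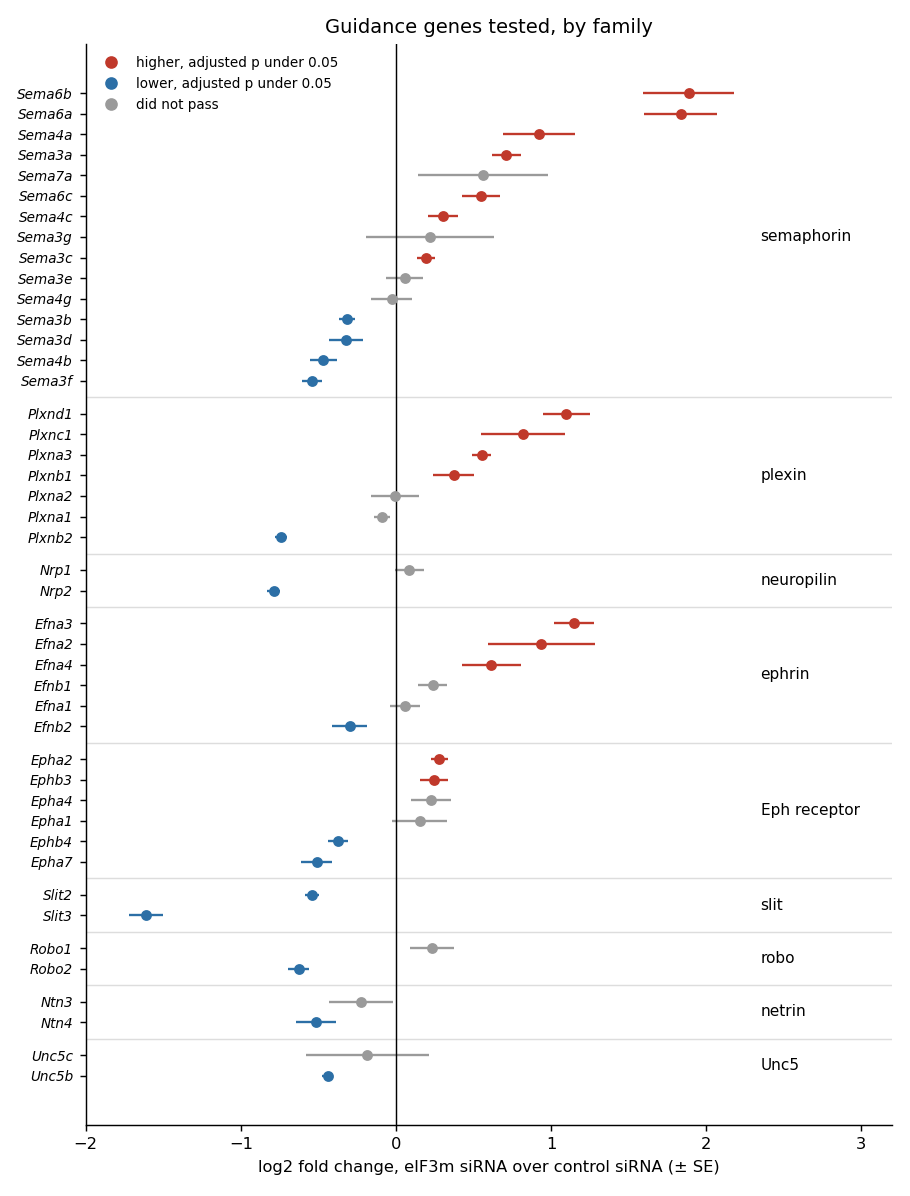
Log2 fold change of each of the 44 guidance genes tested, eIF3m siRNA over control siRNA, grouped by family and sorted within it. Points are the edgeR estimates, bars their SE, red and blue points passed the test (16 higher, 14 lower) and grey points did not. Semaphorins, plexins, ephrins and Eph receptors hold genes on both sides of 0, whereas each called Slit, Robo, netrin and Unc5 gene is lower. Only 2 genes were tested in each of the Slit, Robo, netrin and Unc5 families.

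The promoters of those 5 members are shown because their transcripts changed most. The windows run from 250 bases before to 50 after the annotated start in RefSeq (assembly GRCr8, which is not the rn6 build of the counts), written 5′ to 3′ on the gene's strand. Capitals mark the GC box GGGCGG, the one of the 3 motifs searched that was found here. The others were CATTCC, read by TEAD factors, and TGANTCA, read by AP-1. All 3 were searched on both strands, and overlaps between motifs were allowed.
Sema6b, GRCr8 chr9:1047693-1047992, minus strand: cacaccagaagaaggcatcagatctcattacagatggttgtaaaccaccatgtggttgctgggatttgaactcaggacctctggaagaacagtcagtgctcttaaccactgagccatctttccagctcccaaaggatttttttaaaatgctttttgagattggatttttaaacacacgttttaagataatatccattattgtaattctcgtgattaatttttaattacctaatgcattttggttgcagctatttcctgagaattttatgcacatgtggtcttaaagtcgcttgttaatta
Sema6a, GRCr8 chr18:42358491-42358790, minus strand: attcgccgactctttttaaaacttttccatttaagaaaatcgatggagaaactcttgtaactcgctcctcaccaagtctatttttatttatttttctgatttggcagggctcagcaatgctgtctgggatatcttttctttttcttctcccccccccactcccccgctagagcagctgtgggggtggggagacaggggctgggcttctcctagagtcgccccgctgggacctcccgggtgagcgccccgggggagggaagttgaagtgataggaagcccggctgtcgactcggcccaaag
Efna3, GRCr8 chr2:177035789-177036088, minus strand: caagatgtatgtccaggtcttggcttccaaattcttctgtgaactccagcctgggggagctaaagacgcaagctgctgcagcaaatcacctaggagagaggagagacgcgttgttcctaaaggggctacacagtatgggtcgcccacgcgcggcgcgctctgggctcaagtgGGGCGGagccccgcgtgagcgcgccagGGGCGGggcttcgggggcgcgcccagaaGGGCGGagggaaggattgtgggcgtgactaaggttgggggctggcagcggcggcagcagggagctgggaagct
Plxnd1, GRCr8 chr4:150715138-150715437, minus strand: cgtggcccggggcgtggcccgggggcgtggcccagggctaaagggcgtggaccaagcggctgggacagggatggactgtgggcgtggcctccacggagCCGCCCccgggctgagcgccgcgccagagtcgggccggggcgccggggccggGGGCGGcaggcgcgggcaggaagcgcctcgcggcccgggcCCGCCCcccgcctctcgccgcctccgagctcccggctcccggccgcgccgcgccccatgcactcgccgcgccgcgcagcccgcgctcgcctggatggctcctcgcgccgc
Slit3, GRCr8 chr10:20075679-20075978, plus strand: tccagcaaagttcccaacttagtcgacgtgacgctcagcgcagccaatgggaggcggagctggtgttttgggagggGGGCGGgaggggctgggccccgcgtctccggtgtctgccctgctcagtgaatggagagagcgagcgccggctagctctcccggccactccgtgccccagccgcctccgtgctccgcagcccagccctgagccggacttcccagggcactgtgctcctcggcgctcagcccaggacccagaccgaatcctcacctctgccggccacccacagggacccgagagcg
The Efna3 and Plxnd1 windows each held 3 GC boxes, the Slit3 window 1, and the Sema6a and Sema6b windows 0. G and C made up 36.3% of the Sema6b window and 53.3% of the Sema6a window, against 64.3%, 83.0% and 69.3% in Efna3, Plxnd1 and Slit3. All 68 symbols matched a RefSeq symbol, and a window was on hand for 53 of them. A GC box was present in 10 of 15 windows of genes that rose, in 8 of 11 of genes that fell, in 30 of all 53, and in 33.1% of 33469 windows of all genes. The 33469 windows were neither reduced to 1 per symbol nor limited to genes tested here, so the sets are unlike. The median G and C content was 64.0% in the 53 windows and 51.7% in all windows. CATTCC was found in 6 of the 53 (11.3%) and in 14.2% of all windows, and TGANTCA in 1 (1.89%) and in 7.33%. A match describes letters in these windows and shows no binding. For each guidance gene 1 annotated start was taken, and whether these cells use it was not tested.

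Semaphorins moved in both directions. Of 15 tested, 7 rose, 4 fell and 4 did not pass (73.3% called, against 38.7% of all genes tested), and 5 rose and 3 fell without eIF3m siRNA replicate 3 or without control siRNA replicate 1. All 3 tested members of class 6, which are transmembrane ligands, rose. Sema6a, a ligand of A-type plexins, was measured at 10.0, 7.51 and 9.24 CPM in eIF3m siRNA libraries and at 2.97, 2.68 and 2.09 CPM in control siRNA libraries. The groups lay far apart, and the counts were 105, 17 and 77 with eIF3m siRNA and 21, 21 and 17 with control siRNA (log2 fold change 1.83 ± 0.24 SE, adjusted p = 1.71e-05). Sema6b, also a ligand of A-type plexins, was at 10.6, 8.83 and 5.76 CPM with eIF3m siRNA and at 1.84, 2.81 and 2.09 CPM with control siRNA. Its knockdown values spread widely but did not overlap the controls (1.89 ± 0.29 SE, adjusted p = 1.03e-04). Without eIF3m siRNA replicate 1 the log2 fold changes of Sema6a and Sema6b were 1.75 and 1.59, and both passed. Sema6c was at 31.9, 36.7 and 25.4 CPM with eIF3m siRNA and 19.0, 21.3 and 21.6 CPM with control siRNA, and it also rose (0.55 ± 0.12 SE, adjusted p = 0.00239).

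The secreted class 3 semaphorins divided. Of 7 members, all tested, 2 rose, 3 fell and 2 did not pass, where 38.7% of all genes tested were called. Sema3a, which repels axons through Nrp1 and A-type plexins, rose to 38.6, 42.4 and 45.1 CPM in eIF3m siRNA libraries, against 24.8, 27.6 and 24.3 CPM in control siRNA libraries (0.71 ± 0.09 SE, adjusted p = 2.13e-05). Sema3f, which acts through Nrp2, fell to 76.5, 74.2 and 65.3 CPM in eIF3m siRNA libraries, against 99.3, 106 and 107 CPM in control siRNA libraries (-0.54 ± 0.06 SE, adjusted p = 8.29e-06). Neither gene overlapped between the groups. Sema3b, another secreted ligand, fell to a mean of 109 ± 4.05 CPM with eIF3m siRNA, against 135 ± 0.829 CPM with control siRNA (SD, n = 3 per group; log2 fold change -0.32 ± 0.05 SE, adjusted p = 1.29e-04). Sema3c, a ligand known from the cardiac outflow tract, rose by a small amount (142 ± 4.50 CPM with eIF3m siRNA and 124 ± 8.89 CPM with control siRNA, log2 fold change 0.19 ± 0.06 SE), and its call was lost without eIF3m siRNA replicate 3 (0.17) or control siRNA replicate 1 (0.14). Sema3d was lower (22.6 ± 3.32 CPM with eIF3m siRNA and 27.2 ± 0.890 CPM with control siRNA, log2 fold change -0.32 ± 0.11 SE, adjusted p = 0.0287). The call of Sema3d was lost without eIF3m siRNA replicate 1 (-0.34), eIF3m siRNA replicate 3 (-0.22), control siRNA replicate 1 (-0.32), control siRNA replicate 2 (-0.30) or control siRNA replicate 3 (-0.35), and with upper-quartile scaling (-0.25), with no scaling factors (-0.18) and with DESeq2 (-0.31). Sema3e, which binds Plxnd1 without a neuropilin, was at 21.4, 18.1 and 18.2 CPM with eIF3m siRNA and 20.5, 17.1 and 18.9 CPM with control siRNA, and the groups overlapped (0.056 ± 0.12 SE, adjusted p = 0.752). Sema3g lay near the floor, at 1.72, 1.77 and 1.80 CPM with eIF3m siRNA and 0.707, 1.79 and 1.97 CPM with control siRNA, and did not pass.

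Class 4 semaphorins are membrane proteins that signal mostly to B-type plexins. Of 4 tested 2 rose, 1 fell and 1 did not pass, where 38.7% of all genes tested were called. Sema4b fell to 25.7, 24.3 and 25.8 CPM in eIF3m siRNA libraries, against 36.6, 35.4 and 34.0 CPM in control siRNA libraries, with no overlap (-0.47 ± 0.09 SE, adjusted p = 5.14e-04). Sema4a, best known from immune cells, was at 9.63, 7.95 and 6.24 CPM with eIF3m siRNA and 4.53, 4.08 and 4.06 CPM with control siRNA (0.92 ± 0.23 SE, adjusted p = 0.00541). Its highest value was in eIF3m siRNA replicate 1, the library with blood and endothelial transcripts, and the call was lost without eIF3m siRNA replicate 1 (0.69); the part of those cells in its level was not tested. Sema4c, a Plxnb2 ligand, was at 41.5, 42.8 and 48.1 CPM with eIF3m siRNA and 31.3, 39.1 and 37.1 CPM with control siRNA (0.30 ± 0.09 SE, adjusted p = 0.0188), a call lost without eIF3m siRNA replicate 3 (0.22) or control siRNA replicate 1 (0.22). Sema4g did not pass (-0.029 ± 0.13 SE), nor did Sema7a, the lipid-anchored ligand of Plxnc1, with values of 2.38, 5.30 and 1.80 CPM with eIF3m siRNA and 2.26, 1.91 and 1.23 CPM with control siRNA.

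Plexins and neuropilins, the receptors, also went both ways: of 9 receptors tested, 4 rose, 2 fell and 3 did not pass. The share called was 71.4% of 7 plexins and 50% of 2 neuropilins, against 38.7% of all genes tested. Plxnd1, the receptor of Sema3e that is best known from vascular endothelium, was at 32.4, 19.0 and 26.2 CPM with eIF3m siRNA and at 13.2, 13.4 and 11.9 CPM with control siRNA (1.10 ± 0.15 SE, adjusted p = 3.31e-05). All 3 knockdown values lay above all 3 control values, the highest in eIF3m siRNA replicate 1. In that library Pecam1, Cdh5, Tek, Tie1, Cldn5 and Esam were also high, whereas the endothelial markers Flt1 and Egfl7 were below all controls. Without that library the log2 fold change of Plxnd1 was 0.90 (adjusted p = 1.01e-04). Plxna3, a class 3 semaphorin receptor, rose to 68.9, 76.0 and 69.6 CPM in eIF3m siRNA libraries, against 46.5, 50.2 and 47.3 CPM in control siRNA libraries (0.55 ± 0.06 SE, adjusted p = 4.42e-06). Plxnb1 (0.37 ± 0.13 SE, adjusted p = 0.0385), the receptor of Sema4d, and Plxnc1 (0.82 ± 0.27 SE, adjusted p = 0.025) rose as well. The call of Plxnb1 was lost without eIF3m siRNA replicate 2 (0.37), eIF3m siRNA replicate 3 (0.34), control siRNA replicate 1 (0.28) or control siRNA replicate 3 (0.35), and with no filter (0.35) and with DESeq2 (0.38). That of Plxnc1, with 66, 9 and 39 counts in eIF3m siRNA libraries and 24, 23 and 21 in control siRNA libraries, was lost without eIF3m siRNA replicate 1 (0.60), control siRNA replicate 2 (0.81) or control siRNA replicate 3 (0.72), and with no filter (0.79) and with DESeq2 (0.81).

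Plxnb2, a receptor of class 4 semaphorins, fell to 368, 344 and 381 CPM in eIF3m siRNA libraries, against 606, 607 and 616 CPM in control siRNA libraries (-0.74 ± 0.04 SE, adjusted p = 1.98e-09). Nrp2, the co-receptor of Sema3f, fell to 252, 252 and 255 CPM in eIF3m siRNA libraries, against 430.0, 433 and 447 CPM in control siRNA libraries (-0.79 ± 0.04 SE, adjusted p = 1.07e-09). For Nrp2 the values within a group lay close together and far from the other group. Nrp1, the co-receptor of Sema3a, was at 35.7, 29.6 and 32.3 CPM with eIF3m siRNA and 34.2, 30.1 and 29.7 CPM with control siRNA, and its groups overlapped (0.087 ± 0.10 SE, adjusted p = 0.505). Plxna1 (156 ± 6.51 CPM with eIF3m siRNA and 166 ± 4.43 CPM with control siRNA) and Plxna2 (13.0 ± 2.49 CPM with eIF3m siRNA and 13.7 ± 1.68 CPM with control siRNA), both A-type receptors, did not pass either.

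**Figure D2:**
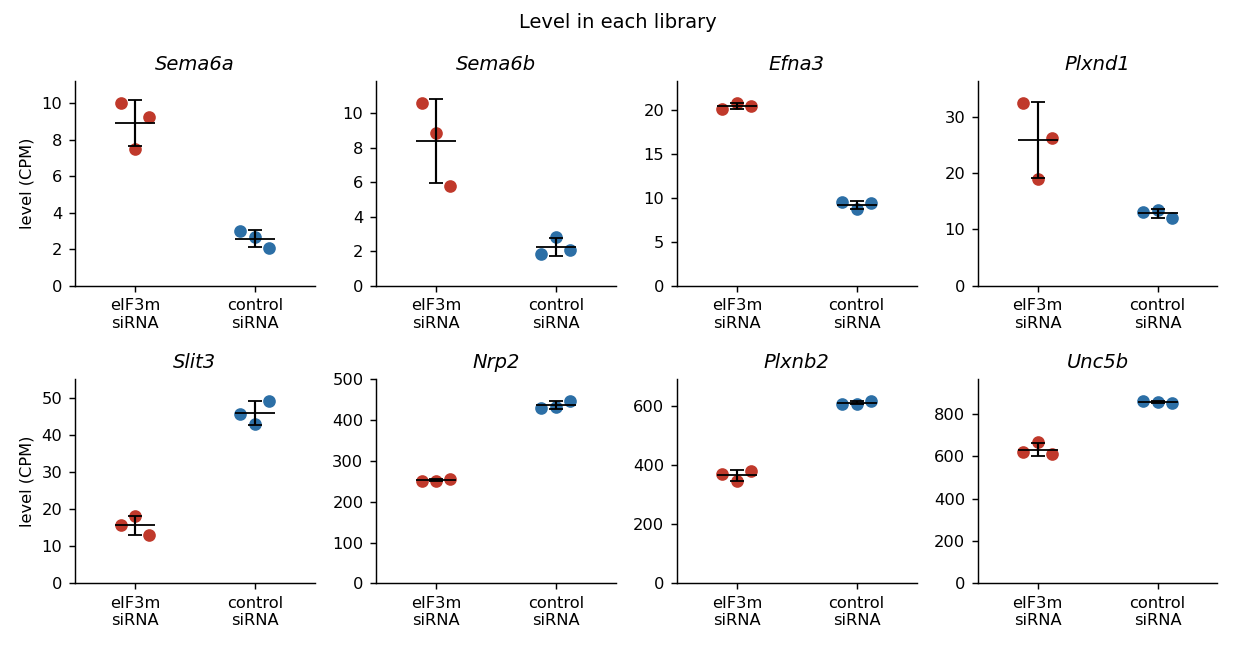
Level of 8 guidance genes in each library in CPM, on axes that start at 0, with eIF3m siRNA libraries on the left and control siRNA libraries on the right of each panel. Points are libraries, and the black bars give the mean and SD of 3. Sema6a, Sema6b, Efna3 and Plxnd1 are higher, and Slit3, Nrp2, Plxnb2 and Unc5b are lower, with eIF3m siRNA. No panel shows overlap between the groups, but the 8 were picked from called genes, so this is a description. Among all genes tested 48.6% did not overlap.

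Among ephrins of the A type, which are held in the membrane by a lipid anchor, Efna3 rose and its call held in every alternative run. Efna4 and Efna2 were also called higher, but neither call held in every run. Efna2 reached the filter level in every eIF3m siRNA library but not in every control siRNA library, so it was tested through the group where it was high. Of 6 ephrins tested, 3 rose, 1 fell and 2 did not pass (66.7% called, against 38.7% of all genes tested). Efna3 was at 20.0, 20.8 and 20.4 CPM in eIF3m siRNA libraries and at 9.48, 8.68 and 9.34 CPM in control siRNA libraries. The values within a group lay close together and far from the other group (1.15 ± 0.13 SE, adjusted p = 4.47e-06). Efna4 was at 14.8, 15.0 and 12.2 CPM with eIF3m siRNA and 8.06, 11.9 and 7.13 CPM with control siRNA (0.62 ± 0.19 SE, adjusted p = 0.0189); its call was lost without eIF3m siRNA replicate 1 (0.55), control siRNA replicate 1 (0.55) or control siRNA replicate 3 (0.47). Efna2 rested on 39, 7 and 29 counts in eIF3m siRNA libraries and 13, 20 and 9 in control siRNA libraries (0.94 ± 0.34 SE, adjusted p = 0.043), and its call was lost without eIF3m siRNA replicate 1 (0.88), eIF3m siRNA replicate 2 (0.98), eIF3m siRNA replicate 3 (0.95), control siRNA replicate 1 (0.94) or control siRNA replicate 3 (0.67), and with no filter (0.91) and with DESeq2 (0.94). Efnb2, a transmembrane ephrin that marks arterial endothelium, was lower with eIF3m siRNA (20.3, 18.5 and 19.4 CPM) than with control siRNA (24.5, 21.3 and 26.7 CPM), close to the threshold (-0.30 ± 0.11 SE, adjusted p = 0.0495). This call was lost without eIF3m siRNA replicate 1 (-0.33), eIF3m siRNA replicate 2 (-0.28), eIF3m siRNA replicate 3 (-0.28), control siRNA replicate 1 (-0.29) or control siRNA replicate 3 (-0.22), and with upper-quartile scaling (-0.23), with no scaling factors (-0.15) and with DESeq2 (-0.30). Efna1, an A-type ephrin with overlapping groups (0.059 ± 0.10 SE), and Efnb1, a B-type one, did not pass. The Efnb1 values were 27.7, 27.8 and 27.7 CPM with eIF3m siRNA and 22.5, 25.3 and 22.9 CPM with control siRNA, which do not overlap (0.24 ± 0.10 SE, adjusted p = 0.0634). Efnb1 passed with upper-quartile scaling and with no scaling factors (log2 fold changes 0.30 and 0.38).

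Of 6 Eph receptors tested, 2 rose, 2 fell and 2 did not pass (66.7% called, against 38.7% of all genes tested), and none changed 2-fold. Epha2, a receptor of A-type ephrins, was at 304, 345 and 302 CPM with eIF3m siRNA and 253, 268 and 258 CPM with control siRNA, with no overlap (0.28 ± 0.06 SE, adjusted p = 8.41e-04). Ephb3 was at 89.9, 62.7 and 92.5 CPM with eIF3m siRNA and 70.4, 76.6 and 69.9 CPM with control siRNA. The groups overlapped, with eIF3m siRNA replicate 2 below all controls, and the gene passed close to the threshold (0.24 ± 0.09 SE, adjusted p = 0.0448). Among other runs, the call of Ephb3 was lost without eIF3m siRNA replicate 1 (0.21), eIF3m siRNA replicate 3 (0.19), control siRNA replicate 1 (0.23), control siRNA replicate 2 (0.29) or control siRNA replicate 3 (0.22), and with robust dispersion (0.24) and with DESeq2 (0.20). Epha7 fell to 37.1, 31.8 and 46.9 CPM in eIF3m siRNA libraries, against 57.0, 54.5 and 60.0 CPM in control siRNA libraries (-0.51 ± 0.10 SE, adjusted p = 6.86e-04). Ephb4, the receptor of Efnb2 and a marker of veins, fell to 85.5, 72.4 and 74.3 CPM in eIF3m siRNA libraries, against 99.6, 105 and 101 CPM in control siRNA libraries (-0.38 ± 0.06 SE, adjusted p = 2.25e-04). Epha4, which binds ephrins of both types, was at 25.6, 20.3 and 18.6 CPM with eIF3m siRNA and 18.4, 18.6 and 19.2 CPM with control siRNA and did not pass (0.22 ± 0.13 SE), though it did with no scaling factors (0.37). Epha1 did not pass (0.15 ± 0.18 SE, adjusted p = 0.537).

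Slits and the Robo receptors fell where they were called: both Slits tested fell, and of 2 Robos 1 fell and 1 did not pass. With 2 genes tested per family and 38.7% of all genes tested called, these counts set no family direction. Slit3 was at 15.7, 18.1 and 13.0 CPM in eIF3m siRNA libraries and at 45.6, 42.9 and 49.2 CPM in control siRNA libraries. The highest knockdown value was under the lowest control value by more than 20 CPM (-1.61 ± 0.11 SE, adjusted p = 1.87e-08). Slit2, its closely related paralogue, fell to 167, 176 and 173 CPM in eIF3m siRNA libraries, against 255, 249 and 246 CPM in control siRNA libraries (-0.54 ± 0.05 SE, adjusted p = 3.32e-07). Robo2, a receptor of both, fell to 50.2, 53.9 and 54.9 CPM in eIF3m siRNA libraries, against 76.4, 80.2 and 87.4 CPM in control siRNA libraries (-0.63 ± 0.07 SE, adjusted p = 2.21e-06). Robo1, the other receptor tested, was at 14.7, 14.1 and 17.4 CPM with eIF3m siRNA and 14.9, 13.5 and 11.7 CPM with control siRNA, with overlap (0.23 ± 0.14 SE, adjusted p = 0.222). It passed toward higher values with no scaling factors (0.38, adjusted p = 0.0452).

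Among netrins and their receptors, 1 of 2 netrins and 1 of 2 Unc5 receptors tested fell, and the others did not pass. The share called was 50% in each family, against 38.7% of all genes tested. Unc5b, a netrin receptor that mediates repulsion, fell to 619.5, 665 and 609 CPM in eIF3m siRNA libraries, against 863, 855 and 852 CPM in control siRNA libraries (-0.44 ± 0.03 SE, adjusted p = 7.91e-08). It had more counts than any other guidance gene in every library and the smallest SE among the 44. Ntn4, a netrin found in basement membranes, fell to 22.7, 17.7 and 16.4 CPM in eIF3m siRNA libraries, against 25.5, 27.6 and 30.1 CPM in control siRNA libraries (-0.52 ± 0.13 SE, adjusted p = 0.0047). Ntn3 (-0.23 ± 0.20 SE) and Unc5c (-0.19 ± 0.40 SE) had overlapping groups and did not pass.

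Relatives that moved differently can be compared inside each library, where scaling cancels. The 5 pairs were chosen after their values had been seen. The ratio of Sema3f to Sema3a counts was 1.98, 1.75 and 1.45 in eIF3m siRNA libraries and 4.01, 3.86 and 4.40 in control siRNA libraries. The co-receptor ratio of Nrp2 to Nrp1 was 7.06, 8.51 and 7.91 with eIF3m siRNA and 12.6, 14.4 and 15.0 with control siRNA. Both ratios were lower in each knockdown library than in each control library. The ratio of Plxnb2 to Plxnd1 was 11.4, 18.1 and 14.6 with eIF3m siRNA and 46.1, 45.3 and 51.7 with control siRNA. That of Efnb2 to Efna3 was 1.01, 0.894 and 0.953 with eIF3m siRNA and 2.58, 2.46 and 2.85 with control siRNA, and that of Slit2 to Slit3 was 10.6, 9.73 and 13.4 with eIF3m siRNA and 5.59, 5.81 and 5.00 with control siRNA. The Slit ratio was higher in each knockdown library, where both genes were lower. The pairs were picked because their members had moved apart, so the separation of the groups is a description, given with no test, and a ratio does not say which gene changed.

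**Figure D3:**
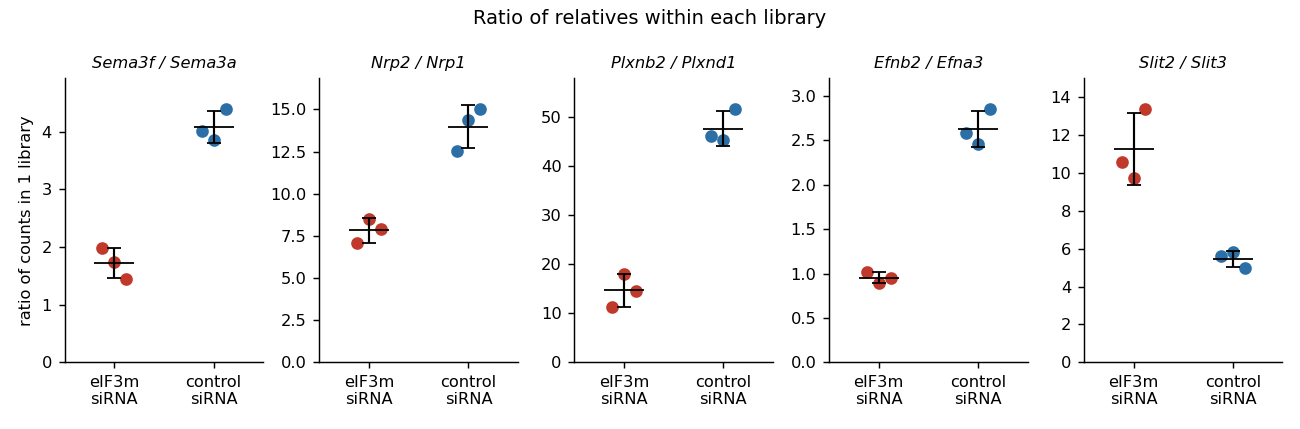
Ratio of counts between 2 relatives within each library, eIF3m siRNA on the left and control siRNA on the right of each panel, on axes that start at 0. Points are libraries and black bars the mean and SD of 3. The first 4 ratios are lower and the Slit2 to Slit3 ratio is higher in all 3 eIF3m siRNA libraries.

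Partners outside these families were read from a list of 79 co-receptors, ligand-processing enzymes and intracellular effectors. The list was drawn up with earlier results of these data known. Of 65 tested, 18 rose and 17 fell (53.8% called, against 38.7% of all genes tested), with a median log2 fold change of 0.02. Among the 18, Flrt3 (1.14) reached the filter level in every eIF3m siRNA library but not in every control siRNA library. The split depended on scaling, with 24 higher and 13 lower under upper-quartile scaling and 32 and 11 with no scaling factors. The 8 lowest p-values belonged mostly to genes that fell. Itgb1, the integrin subunit that Sema7a binds, averaged 1583 ± 54.5 CPM with eIF3m siRNA and 3055 ± 42.3 CPM with control siRNA (SD, n = 3 each; log2 fold change -0.95 ± 0.02 SE). Dag1, dystroglycan, which binds Slit proteins, averaged 330.1 ± 6.69 CPM with eIF3m siRNA and 669 ± 11.7 CPM with control siRNA (-1.02 ± 0.04 SE). The list holds 12 regulators of actin assembly (cofilin, its phosphatase, the LIM and Pak kinases, the Mical enzymes and the Ena/VASP proteins), a grouping made after the values were seen, and of 11 tested 5 rose, 4 fell and 2 did not pass. Cfl1, cofilin, which severs actin filaments, fell (-0.34 ± 0.03 SE), as did Mical1 (-0.59 ± 0.05 SE), an enzyme that oxidises actin after plexin activation, and Vasp (-0.37 ± 0.05 SE), an actin polymerising protein. Evl (0.56 ± 0.10 SE), a relative of Vasp, Mical3 (0.48 ± 0.09 SE), a relative of Mical1, the cofilin phosphatase Ssh1 (0.34 ± 0.06 SE) and the kinase Pak1 (0.26 ± 0.05 SE) rose, and Enah (0.079 ± 0.04 SE) and Mical2 (-0.021 ± 0.05 SE) did not pass. The LIM kinases, which inactivate cofilin, moved in opposite directions. Limk1 was at 50.9, 50.3 and 56.1 CPM with eIF3m siRNA and 31.7, 25.9 and 29.5 CPM with control siRNA (0.87 ± 0.09 SE, adjusted p = 1.44e-06), and Limk2 at 47.2, 39.7 and 45.0 CPM with eIF3m siRNA and 66.8, 64.3 and 63.1 CPM with control siRNA (-0.52 ± 0.07 SE, adjusted p = 1.73e-05). Sipa1l1, a Rap regulator bound by Eph receptors, fell (-0.46 ± 0.06 SE). Dcc, the attractive netrin receptor, had 0 counts in all 6 libraries, whereas the related receptor Neo1 was tested and fell (-0.37 ± 0.06 SE, adjusted p = 1.31e-04; chosen after its value was seen).

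The remaining 24 guidance genes were too low to test. Epha5 and Robo4, an endothelial receptor, had 0 counts in every library, which allows levels of up to 0.286 to 1.32 CPM depending on the library. Another 6 had at most 3 counts in any library, namely Epha8, Ephb1, Ephb6, Efnb3, Plxnb3 and Unc5d. The other 16 were Epha3, Epha6, Epha10, Ephb2, Efna5, Sema4d, Sema4f, Sema5a, Sema5b, Sema6d, Plxna4, Slit1, Robo3, Ntn1, Ntn5 and Unc5a. Several of these were found mainly in eIF3m siRNA replicate 1. Ntn1, netrin 1, had 51 counts there, against 1 and 1 in eIF3m siRNA replicates 2 and 3 and 1, 0 and 0 in control siRNA replicates. Plxna4, the receptor of Sema6a and Sema6b, had 52 counts in that library, against 0 and 1 in eIF3m siRNA replicates 2 and 3 and 0, 1 and 0 in control siRNA replicates. Sema4d, an immune cell ligand of Plxnb1, had 28 counts there, against 2 and 2 in eIF3m siRNA replicates 2 and 3 and 2, 11 and 4 in control siRNA replicates. Sema5a (8 counts) and Epha3 (5 counts) were seen in that library alone. Pecam1, Dcn and Hbb counts were high in the same library, and the part of other cells in these guidance gene counts was not tested. Sema5b had 8, 1 and 5 counts in eIF3m siRNA libraries and 0 in each control siRNA library. With no filter, Ntn1, Plxna4, Sema5b and Sema6d were called higher, each on 0 or 1 count in every control library.

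**Figure D4:**
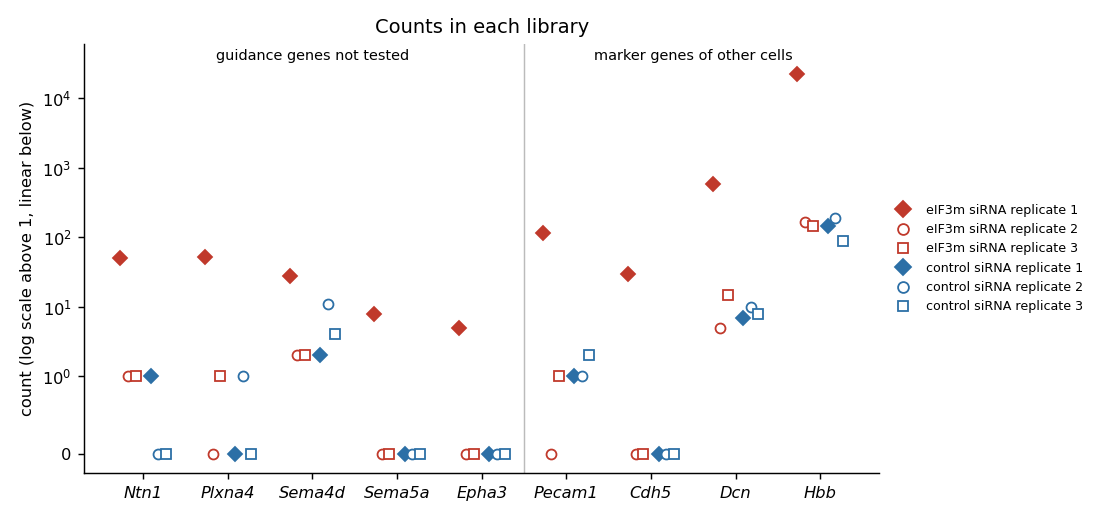
Counts of 5 guidance genes that were not tested and of 4 marker genes of endothelium, fibroblasts and blood in each library, on an axis that is logarithmic above 1 and linear below. Red symbols are eIF3m siRNA libraries and blue symbols control siRNA libraries, with a shape for each replicate. In all 9 genes the filled red diamond, eIF3m siRNA replicate 1, is the highest. The genes were picked after their counts had been seen. Counts are not scaled, and that library has the largest total.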

How the data were processed

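RNA sequencing counts of 6 rat libraries, 3 with eIF3m siRNA and 3 with control siRNA, were analysed as the authors deposited them, as whole-number counts per gene symbol with no normalisation. Group and replicate were taken from the labels. Per the submitters' processing notes, Trimmomatic 0.40, HISAT2 2.2.1, featureCounts, DESeq2 and limma were used with build rn6; the role of each tool and settings for annotation, strand and multi-mapping are not stated, so reads of overlapping genes and close paralogues may be shared. Per the labels' protocols, libraries came from a SMARTER mRNA kit, and the same text describes dexamethasone, isobutylmethylxanthine and insulin feeding without saying whether these cells received it. In each file 27 symbols had turned into calendar dates and were left out (0.203% to 0.216% of counts).

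Genes were filtered with filterByExpr (minimum count 10, minimum total 15) and tested over all 12724 that remained with edgeR 4.0.16 in R 4.3.3: TMM scaling, two-sided quasi-likelihood F-test between the groups, Benjamini-Hochberg adjusted p under 0.05. Log2 fold changes are eIF3m siRNA over control siRNA with the SE of the fit. Alternatives were DESeq2 1.42.0, upper-quartile scaling, no scaling factors, no filter, robust dispersion, a replicate block, and each library left out with the same genes. The edgeR step was tested on simulated data. Floors cover counting error only. Named genes are Eif3m, every called guidance gene, the 6 most abundant that did not pass, those whose call depends on 1 library, and the 8 effectors with the lowest p; others were named after their values were seen. Members and lists were chosen with earlier results of these data known.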

Additional observations from a re-analysis of the deposited data

How the results depend on the processing

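Every called guidance gene kept its direction in all 12 alternative runs, and 20 of the 30 stayed past the threshold in each. The count of 30 called members became 29 with upper-quartile scaling, 31 with no scaling factors, 31 of 66 with no filter, 29 with robust dispersion and 24 with DESeq2, and 22 to 27 when a library was left out. Those are 65.9%, 70.5%, 47.0%, 65.9%, 54.5% and 50% to 61.4% of members tested, against 40.4%, 45.7%, 24.3%, 39.8%, 29.6% and 32.1% to 37.3% of all genes tested in the same runs. The members that rose numbered 16 in the main test and 10 to 14 with a library left out, lowest without control siRNA replicate 1, and those that fell 14 and 12 to 13. With no scaling factors the median log2 fold change of all genes moved to 0.16 and the genes called over the whole table to 4126 higher and 1684 lower, from 2220 and 2700; effectors moved to 32 higher and 11 lower, and members to 19 and 12. Upper-quartile scaling gave 3015 higher and 2130 lower over the whole table. Genes that had not passed changed sign: with upper-quartile scaling and no scaling factors Sema4g was at 0.039 and 0.11 and Plxna2 at 0.062 and 0.14, and Plxna1 was at 0.056 with no scaling factors. With a library left out Sema4g ranged from -0.14 to 0.052, Plxna2 from -0.10 to 0.074, Sema3g from -0.095 to 0.47 and Sema3e from -0.041 to 0.12. The cause was not tested. The log2 difference of each of the 5 ratios kept its sign with each library left out, an alternative chosen after seeing the data; as the pairs were chosen for moving apart, this is no sign of stability. Replicate numbers did not pair the samples: deviations from the group means correlated at 0.021, -0.056 and 0.067 for the 3 same-numbered pairs, and no eIF3m siRNA library but replicate 3 correlated best with its own number. With the replicate block 29 members were called, 15 higher and 14 lower, Ephb3 being the one lost (0.23). Low members are measured least precisely in eIF3m siRNA replicate 2, the shallowest library.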
